A study of Mus musculus with 16 samples.

Results

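The 10 genes described here are Txnip, Foxo1, Foxo3, Klf2, Klf6, Btg1, Btg2, Pdcd4, Ccng2 and Tob1, which are tied to resting hematopoietic stem cells (HSCs). They were taken by symbol from a count table of 25239 mouse genes, and all 10 were among the 14124 genes with enough counts to be tested. The study profiled bulk RNA of bone marrow HSCs in a study of P-selectin, the cell adhesion protein made from Selp, and of PSGL-1, which binds it. Cells with an intact Selp gene (SelpWT, here WT) or a knockout of it (SelpKO, here KO) came from mice aged 4 to 6 months. They were sequenced freshly sorted (3 WT and 2 KO libraries), after culture with vehicle (3 and 3), or after 24 hours of culture with 125 ng/mL PSGL-1 (2 and 3). The cultures contained StemSpan medium, penicillin, streptomycin, FCS, SCF, IL-11 and Flt-3 ligand. How long vehicle cultures lasted, which cells lack Selp and whether animals were pooled is not stated in the labels.

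FOXO factors are transcription factors that growth factor signalling through PI3K and AKT keeps out of the nucleus. In HSCs they are known for maintaining quiescence and limiting oxidative stress. TXNIP binds thioredoxin and restrains glucose uptake, and its gene responds to glucose through the factors MondoA and ChREBP. KLF2 and KLF6 are zinc finger transcription factors of the Krüppel-like family. BTG1, BTG2 and TOB1 are antiproliferative proteins that recruit the CCR4-NOT deadenylase to messenger RNAs. PDCD4 inhibits the translation helicase eIF4A, and cyclin G2, from Ccng2, is an atypical cyclin that restrains the cell cycle and a known FOXO target.

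Library totals ran from 12590539 to 24690824 counts, so the detection floor of 3 counts stood at 0.123 to 0.230 CPM, counts scaled to a common library size, the unit of all levels below. WT PSGL-1 replicate 1 was sparse, with counts for 9035 genes, where the remaining 15 libraries had counts for 11101 to 13480. Selp was lower in every KO library (0 to 12.5 CPM) than in every WT library (16.3 to 188 CPM), although its genotype difference did not pass the test in any condition (edgeR adjusted p at least 0.765). The HSC markers Kit, Ly6a, Procr and Hlf had counts in all 16 libraries. Cd3e, Cd3d, Cd3g, Cd8a, Ncr1, Ms4a1, Ebf1, Jchain and Ly6g, which mark T, natural killer, B, plasma and granulocytic cells, had 0 counts in all 16. Other markers of these cells did have counts: Lck, of T cells, in 16 libraries (mean 15.6 CPM in fresh and 34.3 CPM in vehicle cells) and Cd79b, of B cells, in 16 (47.0 and 37.2 CPM). Of the cytotoxic and natural killer cell genes, Nkg7 had counts in 15 (53.1 and 17.3 CPM) and Klrb1c in 6 (10.6 and 0 CPM).

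The promoters of Txnip and Btg1 are shown because they were the only members with a match to the forkhead core TGTTTAC, the sequence FOXO factors bind, in the 250 bases before the start. All 10 members matched the RefSeq promoter table of GRCm38.p6, Pdcd4 with 2 starts. Txnip lies at chr3:96557957-96561857 and Btg1 at chr10:96617001-96622813, both on the plus strand. Capitals mark matches to the motifs searched on both strands.

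Txnip, chr3:96557707-96557956: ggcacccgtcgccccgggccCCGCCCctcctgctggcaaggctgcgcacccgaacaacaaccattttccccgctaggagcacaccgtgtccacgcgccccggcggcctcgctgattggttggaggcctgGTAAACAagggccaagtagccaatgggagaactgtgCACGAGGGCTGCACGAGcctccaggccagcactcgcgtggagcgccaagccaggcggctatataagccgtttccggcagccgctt

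Btg1, chr10:96616751-96617000: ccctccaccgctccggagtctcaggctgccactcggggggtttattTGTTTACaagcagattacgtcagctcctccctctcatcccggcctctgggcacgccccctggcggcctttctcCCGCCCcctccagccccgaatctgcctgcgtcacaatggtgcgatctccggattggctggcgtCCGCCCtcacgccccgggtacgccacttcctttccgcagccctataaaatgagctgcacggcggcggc

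The Txnip window held 3 matches that did not overlap. A GC box (GGGCGG), the motif of KLF and SP factors, lay on the minus strand 230 to 225 bases before the start. The forkhead core lay on the minus strand 121 to 115 bases before it. A carbohydrate response element, the paired site of MondoA and ChREBP with their partner MLX, lay 85 to 69 bases before it. Of 32851 promoters of the same length, 0.28% held the carbohydrate response element, 3.17% the forkhead core and 32.7% a GC box. No other member held the carbohydrate response element. Btg1 had its forkhead core 204 to 198 bases before the start and 2 GC boxes. The E box CACGTG, in 6.02% of promoters, was found in Klf6 alone, and the AP-1 motif TGACTCA, in 4.46%, in no member. These are matches of letters, not measured binding.

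Txnip had by far the highest level of the 10 genes for its length in fresh cells, and it was lower after culture in both genotypes. Its level was 552, 785 and 1027 CPM in the fresh WT libraries, and 964 and 1542 CPM in the fresh KO libraries. Vehicle cultures had 118, 77.9 and 120 CPM in WT and 222, 75.2 and 140 CPM in KO. Cultures with PSGL-1 had 65.5 and 168 CPM in WT and 156, 111 and 132 CPM in KO. Every one of the 11 cultured libraries (65.5 to 222 CPM) lay below every one of the 5 fresh libraries (552 to 1542 CPM). Of all genes tested, 420 (2.97%) were lower without overlap across these 16 libraries, and Txnip was the only member among them.

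In the edgeR quasi-likelihood test, Txnip fell 7.48-fold in WT vehicle cultures against fresh cells (log2 difference -2.90, SE 0.42, adjusted p = 0.00207). In KO cells it fell 8.58-fold (log2 difference -3.10, SE 0.44, adjusted p = 0.00171). Averaged over both genotypes the change was 8.01-fold (log2 difference -3.00, SE 0.30, adjusted p = 3.48e-05), and by p-value Txnip ranked 23 among the 14124 genes. The response of KO minus that of WT was -0.20 (SE 0.58, adjusted p = 1). Txnip was called in the same direction in every alternative fit, also against a minimum fold of 2, and in the fits without that minimum its adjusted p was at most 0.0167 in WT and 0.0179 in KO.

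**Figure D1:**
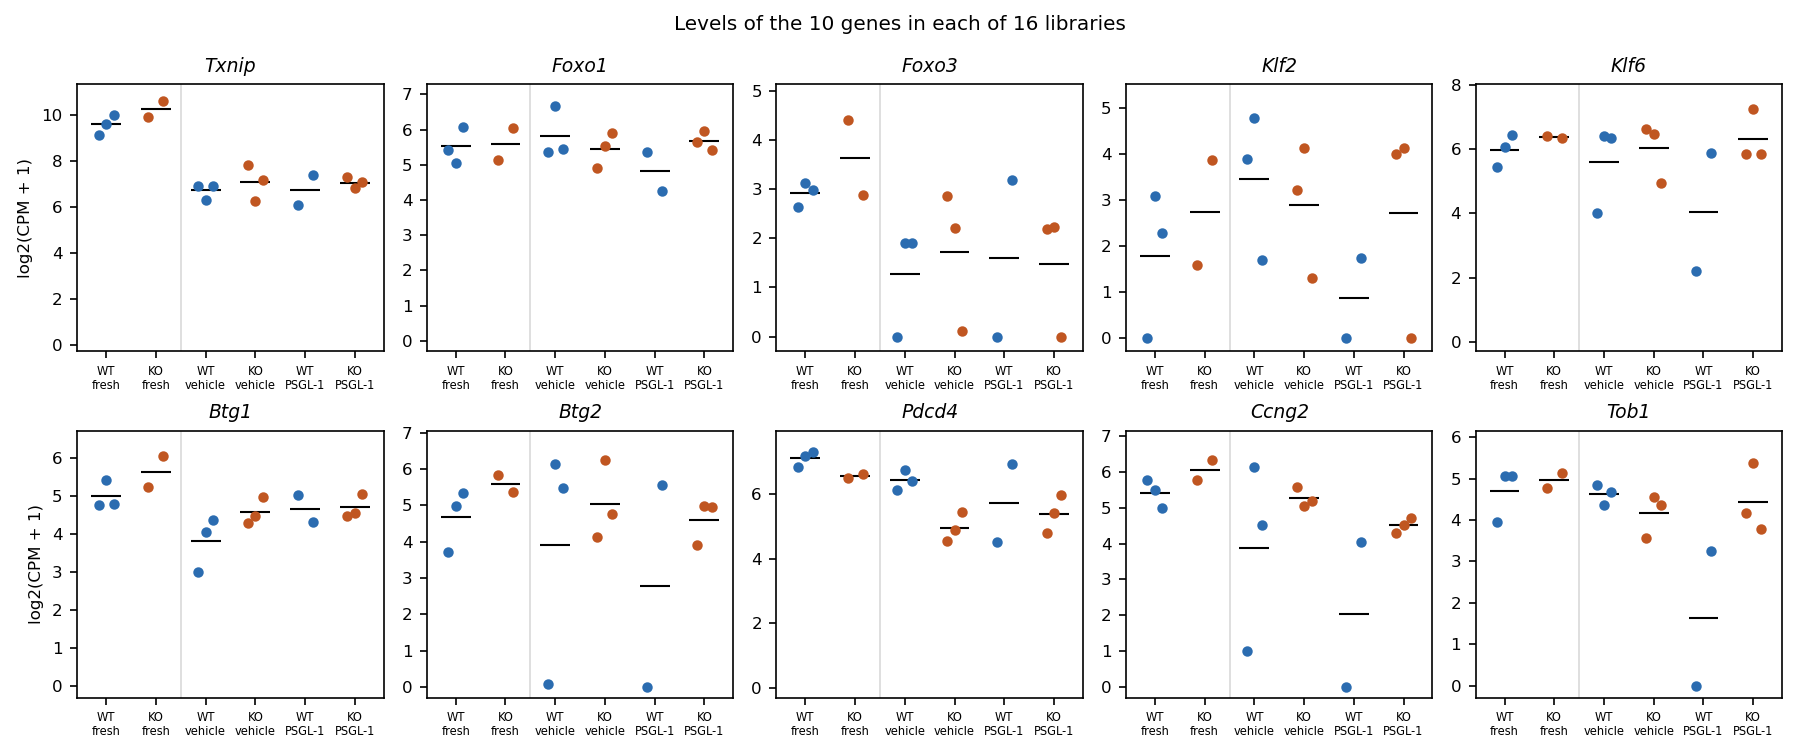
Level of each of the 10 genes as log2(CPM + 1) in each library (points; blue WT, orange KO), with group means as lines; the vertical line separates fresh from cultured cells, and axes differ between panels. Txnip is the only panel in which all 11 cultured libraries lie below all 5 fresh ones.

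Txnip was the only member called in culture. It was 1 of 10 lower in WT, where 0.404% of all genes tested were called lower, and 1 of 10 lower in KO, where the share was 0.538%. For the mean of both genotypes it was again 1 of 10, against 2.3% of all genes. No member was called higher, against 1.23% of all genes in WT, 1.23% in KO and 4.18% for the mean. At an unadjusted p under 0.05, 1 member passed in WT, 2 in KO and 3 for the mean, all of them lower. Over all 14124 genes, 1692, 1649 and 2827 passed in either direction, so these member counts stood near the background. The median difference of the 10 genes was -0.31 in WT, -0.80 in KO and -0.55 for the mean, and that of all genes tested was -0.07, -0.02 and -0.07. Since the data are from bulk RNA, fewer cells of a type and less RNA per cell cannot be told apart.

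Counts of members without overlap between vehicle and fresh libraries were read against the same background. In WT, 4 of 10 were lower without overlap (Txnip, Foxo3, Btg1 and Pdcd4), against 12.7% of all genes tested. In KO, 6 of 10 were (those 4 with Ccng2 and Tob1), against 19%. Taking all 6 vehicle libraries against all 5 fresh ones, Txnip alone remained, against 4.91%.

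**Figure D2:**
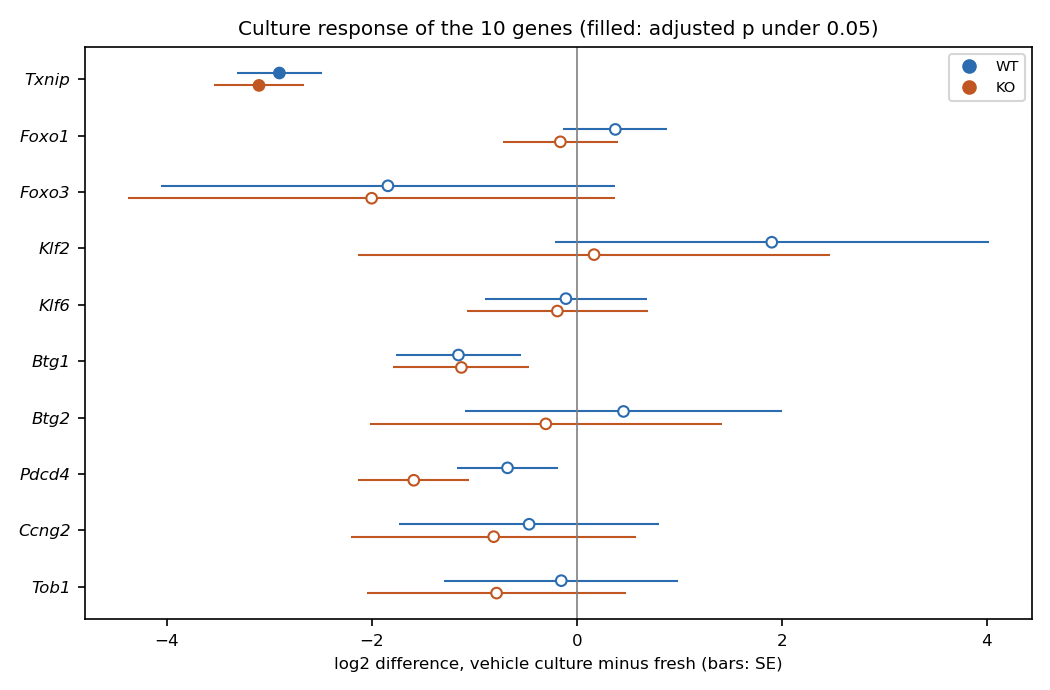
log2 difference between vehicle culture and fresh cells for each of the 10 genes in WT (blue) and KO (orange), with bars for 1 SE; filled points passed an adjusted p of 0.05 in edgeR. Txnip at -2.90 and -3.10 is filled in both genotypes, and every other point is open.

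Neither FOXO factor was called in culture. Foxo1 (chr3:52268337-52350109), the more abundant of both, had 42.0, 32.5 and 66.9 CPM in WT and 34.5 and 64.9 CPM in KO cells when fresh. In vehicle culture it had 40.6, 100.2 and 42.6 CPM in WT and 29.3, 45.1 and 59.0 CPM in KO. The libraries overlapped throughout, and the log2 differences were 0.38 (SE 0.51) in WT and -0.16 (SE 0.56) in KO. Foxo3 (chr10:42181845-42276695), the FOXO factor best known for HSC maintenance, had low levels. It had 5.22 to 20.2 CPM in the 5 fresh libraries and 0 to 6.24 CPM in the 6 vehicle libraries. Foxo3 had 0 counts in 3 cultured libraries, and its differences of -1.84 (SE 2.21) and -2.00 (SE 2.38) were smaller than their errors.

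Of 24 tested FOXO target genes, 4 fell in culture and 0 rose for the mean of both genotypes, and 20 had a difference below 0. Their median difference was -0.70. Over all 14124 genes, 325 fell and 590 rose, and 7503 had a difference below 0. Tsc22d3, which encodes the glucocorticoid-induced leucine zipper, had 185 to 462 CPM in fresh and 25.3 to 92.3 CPM in cultured libraries. It fell by 2.38 on the log2 scale (SE 0.30, edgeR adjusted p = 0.000203). Pik3ip1, an inhibitor of PI3K, had 153 to 406 CPM in fresh and 23.2 to 85.3 CPM in cultured libraries. It fell by 2.13 (SE 0.33, edgeR adjusted p = 0.00111). Both were lower in all 11 cultured than in all 5 fresh libraries, and both passed in WT and KO separately.

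The other FOXO targets called lower were Gabarapl1, an autophagy gene (-0.77, SE 0.20), and Irs2, an insulin receptor substrate (-1.84, SE 0.52). Irs2 libraries overlapped, at 11.99 to 96.3 CPM in fresh and 5.62 to 55.3 CPM in cultured cells. When WT PSGL-1 replicate 1 was left out, the count of FOXO targets called lower was 7, with 0 higher. At an unadjusted p under 0.05, 9 of the 24 passed, against 2827 of the 14124 genes, and the other tools called 1 target higher each. DESeq2 called 6 lower and limma voom 7. Calls over all genes, in either direction, were also more numerous in these fits: 915 in edgeR with every library, 1566 without WT PSGL-1 replicate 1, 1780 with DESeq2 and 1896 with limma voom.

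Among 19 tested FOXO family members and upstream kinases, 2 fell and 1 rose for the mean of both genotypes. In that comparison 2.3% of all genes tested fell and 4.18% rose, which is also the background of the lists below. The PI3K subunits Pik3cd (-1.39, SE 0.35, edgeR adjusted p = 0.0254) and Pik3r1 (-0.87, SE 0.22, adjusted p = 0.0288) fell. Ywhaz, a 14-3-3 protein of the family that holds FOXO factors in the cytoplasm, rose by 0.57 (SE 0.15, adjusted p = 0.0308). The median of this list was 0.03, and without the sparse library 3 of 20 were higher and 2 lower.

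In the thioredoxin and glucose sensing list, 1 of 15 tested genes rose and 1 fell. Txnrd1, the cytosolic thioredoxin reductase, had 116 to 242 CPM in fresh and 224 to 507 CPM in cultured libraries. Its difference was 1.02 (SE 0.19, edgeR adjusted p = 0.00326) for the mean of both genotypes, 1.47 (SE 0.28) in KO and 0.58 (SE 0.24) in WT, where it did not pass. Arrdc1, an arrestin domain gene related to Txnip, fell by 0.71 (SE 0.17, adjusted p = 0.0174). Arrdc4, a close relative of Txnip, was chosen for mention after its values were seen. It had 18.5 to 128 CPM in fresh and 0 to 33.5 CPM in cultured libraries, and its difference of -1.98 (SE 1.12, adjusted p = 0.366) did not pass.

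**Figure D3:**
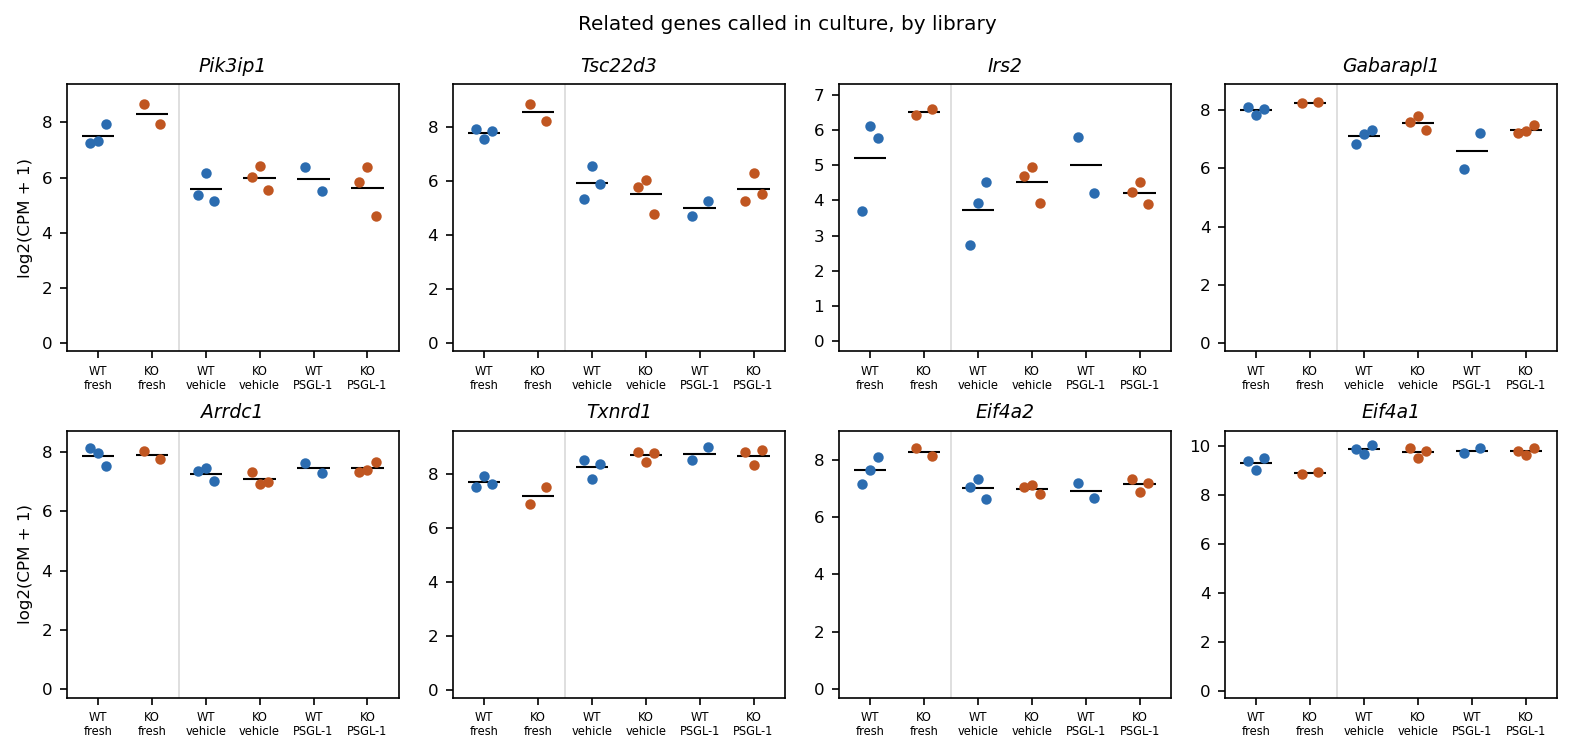
Level of 8 related genes as log2(CPM + 1) in each library (points; blue WT, orange KO), with group means as lines. Pik3ip1, Tsc22d3 and Gabarapl1 are lower in all 11 cultured libraries than in all 5 fresh ones, and Eif4a1 is higher.

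Neither KLF member was called. Klf6 (chr13:5861489-5870393), an injury-responsive factor, had 42.3, 65.7 and 85.3 CPM in the WT and 84.4 and 80.3 CPM in the KO fresh libraries. In vehicle culture it had 15.3, 84.2 and 80.1 CPM in WT and 98.3, 88.3 and 30.1 CPM in KO. The differences were -0.11 (SE 0.79) and -0.19 (SE 0.88), with overlapping libraries in both genotypes. Klf2 (chr8:72319062-72321654), a regulator of lymphocyte and endothelial quiescence, had 0 to 13.6 CPM in fresh and 1.48 to 26.5 CPM in vehicle libraries. Its differences of 1.90 (SE 2.12) and 0.17 (SE 2.30) were within their errors.

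Of 20 tested genes of the KLF family with SP and MEF2 factors and their upstream kinases, 1 rose and 1 fell. These counts stood near the background, where 4.18% of all genes tested rose and 2.3% fell. Klf13 rose by 1.11 (SE 0.22, edgeR adjusted p = 0.00523), with 42.2 to 82.7 CPM in fresh and 93.7 to 201 CPM in cultured libraries. Klf10, a gene induced by TGF-beta, fell by 0.66 (SE 0.18, adjusted p = 0.0430). The list median was -0.12.

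None of Btg1, Btg2 and Tob1 was called in culture. Btg1 (chr10:96617001-96622813) had 26.2, 41.9 and 26.5 CPM in fresh cells of WT and 36.4 and 65.2 CPM in those of KO. Vehicle cultures had 7.004, 15.6 and 19.8 CPM in WT and 18.6, 21.1 and 30.1 CPM in KO, so that within each genotype the groups did not overlap. The differences were -1.15 (SE 0.61) in WT and -1.13 (SE 0.66) in KO, and -1.14 (SE 0.45) for the mean, which did not pass in edgeR (adjusted p = 0.164). DESeq2 called this difference, with an adjusted p of 0.0126.

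Btg2 (chr1:134074865-134079155), a p53 and immediate early target, was the most variable of the 10 genes. It had 12.1, 30.5 and 39.6 CPM in WT and 56.1 and 39.9 CPM in KO fresh libraries, and 0.0604, 68.8 and 43.9 CPM in WT vehicle and 16.4, 74.2 and 26.3 CPM in KO vehicle libraries. Its differences of 0.46 (SE 1.55) and -0.30 (SE 1.72) had no stable direction. Tob1 (chr11:94209842-94215495) had 14.5 to 34.2 CPM in fresh and 10.8 to 27.6 CPM in vehicle libraries, with differences of -0.15 (SE 1.14) and -0.78 (SE 1.26). Of 18 tested relatives and deadenylase genes, 1 rose and 0 fell. It was Cnot9, a CCR4-NOT subunit, at 61.0 to 115 CPM in fresh and 133 to 248 CPM in cultured libraries (1.07, SE 0.20, edgeR adjusted p = 0.00428). At an unadjusted p under 0.05, 2 passed, and DESeq2 and limma voom each called 2 higher and 0 lower.

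Pdcd4 (chr19:53892231-53937592) was the second member by level per length and the closest to a call after Txnip. It had 113, 141 and 156 CPM in fresh cells of WT and 88.8 and 96.9 CPM in those of KO. Vehicle cultures had 68.7, 105 and 83.5 CPM in WT and 22.1, 28.2 and 42.1 CPM in KO. Cultures with PSGL-1 had 21.7 and 120 CPM in WT and 26.4, 41.1 and 60.7 CPM in KO. Vehicle libraries lay below fresh ones within each genotype.

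The difference of Pdcd4 was -0.68 (SE 0.49) in WT and -1.59 (SE 0.54, edgeR adjusted p = 0.198) in KO. For the mean it was -1.13 (SE 0.37, adjusted p = 0.0864), so it was not called. Whether it was called depended on the libraries in the fit, also on those of WT PSGL-1, which enter only the shared spread here. With either of these left out Pdcd4 was called in KO and for the mean. Its difference stayed at -1.57 in KO and -1.13 for the mean, and more genes were called in all. The mean difference was also called by DESeq2 (adjusted p = 0.0195) and limma voom (0.00665). These tools called 1780 and 1896 genes for the mean, against 915 in edgeR.

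Of 14 tested genes for PDCD4 partners and eIF4 factors, 2 rose and 1 fell. The 2 eIF4A paralogs moved in opposite directions. Eif4a1, the main helicase, rose by 0.71 (SE 0.13, edgeR adjusted p = 0.00313), with 461 to 727 CPM in fresh and 741 to 1067 CPM in cultured libraries. Eif4a2 fell by 0.97 (SE 0.20, adjusted p = 0.00736), with 140 to 339 CPM in fresh and 99.1 to 160 CPM in cultured libraries. Eif4g1, the scaffold of the cap-binding complex, rose by 0.80 (SE 0.20, adjusted p = 0.0278). Each direction stands relative to a median of -0.07 over all genes.

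Ccng2 (chr5:93267573-93276231) had 53.2, 43.7 and 30.6 CPM in fresh cells of WT and 54.0 and 78.9 CPM in those of KO. Vehicle cultures had 1.03, 69.5 and 21.7 CPM in WT and 46.7, 31.8 and 35.1 CPM in KO. The WT vehicle libraries thus spanned the whole range of the WT fresh ones, and the differences were -0.47 (SE 1.27) and -0.81 (SE 1.39). In edgeR, 0 of 12 tested genes for cyclin G relatives and PP2A subunits were called, with 1 at an unadjusted p under 0.05. DESeq2 and limma voom also called 0.

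**Figure D4:**
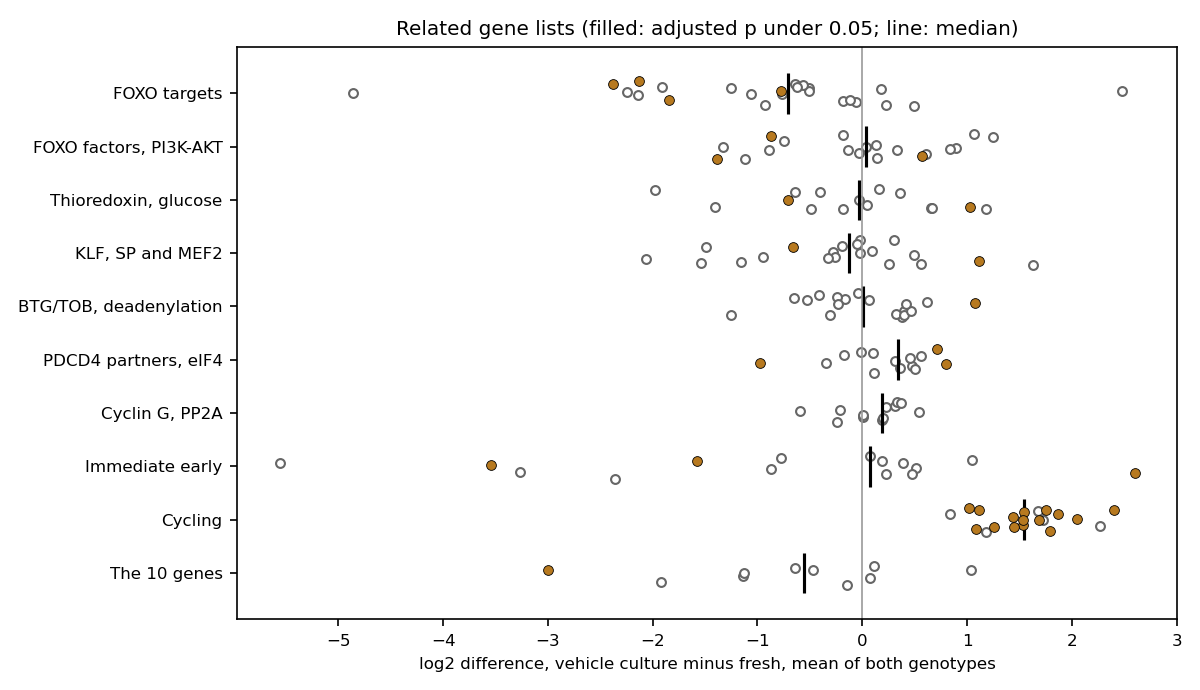
log2 difference between vehicle culture and fresh cells, mean of both genotypes, for the tested genes of each related list and the 10 genes (points; filled where edgeR's adjusted p was under 0.05), with list medians as lines. FOXO targets have their median at -0.70 and the 10 genes at -0.55, and cycling genes at 1.54.

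Cycling genes were measured beside the 10 genes. Of 20 tested, 15 rose and 0 fell for the mean of both genotypes, and all 20 differences were above 0, with a median of 1.54. Mki67, the proliferation marker, rose by 1.80 (SE 0.18, edgeR adjusted p = 3.25e-05), and Plk1, a mitotic kinase, by 2.40 (SE 0.25, adjusted p = 3.87e-05). The summed level of the list was 1812 to 3902 CPM in fresh and 6936 to 7470 CPM in vehicle libraries. Among 15 tested immediate early genes, Socs3 rose by 2.60 (SE 0.31), and Jun fell by 3.54 (SE 0.43) and Ier2 by 1.58 (SE 0.19). Of this list 8 differences were above 0 and 7 below, with a median of 0.07. DESeq2 and limma voom each called 1 of them higher and 5 lower.

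Marker lists of other cell types also differed between fresh and vehicle libraries. The summed level of 11 granulocyte and monocyte markers in fresh cells was 698 to 765 CPM for WT and 1233 to 1291 CPM for KO, against 125 to 434 CPM in WT vehicle and 204 to 249 CPM in KO vehicle. Of these, Lyz2 and Prtn3 had counts in all 16 libraries, and Ly6g had 0 in all. The 10 erythroid markers summed to 1431 to 2634 CPM in fresh and 514 to 1007 CPM in vehicle libraries, with both alpha and both beta globin genes at 0 in all 16. Car2, a carbonic anhydrase, carried nearly all of that sum, with a mean of 2144 CPM in fresh and 768 CPM in vehicle libraries. The 13 HSC markers summed to 2478 to 2970 CPM in fresh and 2116 to 3021 CPM in vehicle libraries. The part of these markers in the Txnip difference was not tested.

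Levels per kilobase of exon ordered the members in fresh cells. Txnip came first at 345 ± 130 CPM per kb (SD, n = 5), followed by Pdcd4 at 45.7 ± 11.0. Klf6 (16.9 ± 4.30), Ccng2 (16.7 ± 5.68), Btg2 (13.0 ± 5.86) and Tob1 (12.3 ± 3.57) came next, each within 1 SD of its neighbours among these genes. Btg1 (7.44 ± 3.03) and Foxo1 (5.55 ± 1.92) lay within 1 SD of each other, and Klf2 (2.93 ± 2.91) and Foxo3 (1.25 ± 0.835) were lowest. In vehicle culture (n = 6) Txnip stood at 44.5 ± 19.1 and Pdcd4 at 22.3 ± 12.6 CPM per kb, and Foxo3 remained lowest at 0.347 ± 0.316. Txnip made up 64.1% to 76.3% of the summed CPM of the 10 genes in fresh libraries and 13.7% to 46.4% in cultured ones.

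The members differed in how far replicates agreed. The pooled SD within groups, on the log2(CPM + 1) scale, was 0.48 for Btg1, 0.56 for Txnip, 0.57 for Foxo1 and 0.66 for Pdcd4, below the median of 0.75 over all genes tested. It was 0.91 for Tob1, 1.18 for Klf6, 1.27 for Foxo3, 1.503 for Ccng2, 1.72 for Klf2 and 2.05 for Btg2. Single libraries carried much of this spread. WT vehicle replicate 1 had 0 CPM of Foxo3, 0.0604 of Btg2 and 1.03 of Ccng2. WT PSGL-1 replicate 1, the sparse library, had 0 counts of Foxo3, Klf2, Btg2, Ccng2 and Tob1 and 3.66 CPM of Klf6. In that library Txnip (65.5 CPM) was the lowest of all 16 and Btg1 (31.4 CPM) was the highest of the 5 WT cultures.

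Likeness was taken over the 6 group means of log2(CPM + 1), each gene centred on its own mean, as the root mean square difference. These are descriptions over 6 points that share libraries. The genes most like Txnip were Gimap6 (0.16), Mx2 (0.16), Prtn3 (0.20), Il4 (0.21) and Snx31 (0.22). Gimap6, a GTPase of the immune-associated family, had means of 209 CPM in fresh WT, 351 in fresh KO, 22.9 in WT vehicle and 31.1 in KO vehicle cells. Mx2, Il4 and Snx31 had 0 counts in most cultured libraries.

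The other members' nearest genes were Ctps2 and Nrros for Foxo1, Pdzk1ip1 and Pink1 for Foxo3, Qpct and Lratd2 for Klf2, and Zfp566 and Eef1akmt4 for Klf6. They were Epb41l4b and Crot for Btg1, Ap5m1 and Kifc3 for Btg2, Hoxb3 and Dapk1 for Pdcd4, Sirt4 and Prickle3 for Ccng2, and Wiz and Pigyl for Tob1. Their distances ran from 0.05 for Pdzk1ip1 to 0.22 for Dapk1. Among the members, Klf6 and Btg2 were closest (0.34) and Txnip and Klf2 farthest apart (1.71). Foxo3 was the member nearest to Txnip, at 0.61.

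The comparison of KO with WT asked whether these genes differed by genotype in each condition. It cannot tell loss of Selp apart from any other difference between the SelpWT and SelpKO cells. In edgeR 0 of 10 members were called in fresh cells, in vehicle culture and with PSGL-1. The background was 0.00708% of all genes tested in each, a single gene, Eno1b. On the log2 scale Eno1b was higher in KO by 5.78 (SE 0.40) in fresh cells and 6.38 (SE 0.40) in vehicle culture. With PSGL-1 it was higher by 6.34 (SE 0.47). DESeq2 and limma voom also called 0 members in each condition. At an unadjusted p under 0.05, 0 passed in fresh cells, 1 in vehicle culture (Pdcd4) and 0 with PSGL-1, and of all 14124 genes 401, 400 and 820 did.

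Pdcd4 was 2.78-fold lower in KO than WT vehicle cultures (log2 difference -1.47, SE 0.50, unadjusted p = 0.0102, edgeR adjusted p = 1). All 3 KO libraries (22.1 to 42.1 CPM) lay below all 3 WT libraries (68.7 to 105 CPM), and it was the only member without overlap there, against 9.34% of all genes in either direction. By p-value Pdcd4 ranked 60 in this comparison, which shares its KO and WT vehicle libraries with the culture comparison. Only 400 of the 14124 genes passed an unadjusted p under 0.05 in edgeR, a smaller share than 0.05. The rank alone is therefore no evidence of a difference. In fresh cells it was also lower in both KO libraries, with a difference of -0.56 (SE 0.56). With PSGL-1 the libraries overlapped, and the difference was -0.73 (SE 0.54).

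In fresh cells 9 of 10 members had a difference above 0, with a median of 0.66, against 0 for all genes tested. Other lists also leaned to one side there, with 0 genes called in each: all 20 cycling genes were below 0 (median -0.71), 13 of 15 immediate early genes above 0 (median 0.65) and 8 of 9 granulocyte and monocyte markers above 0 (median 1.13). Their part in the members' differences was not tested. Txnip was 1253 ± 409 CPM (SD, n = 2) in KO and 788 ± 237 CPM (SD, n = 3) in WT, with overlapping libraries and a difference of 0.67 (SE 0.43, edgeR adjusted p = 1). Btg2 and Ccng2 were higher and Pdcd4 lower without overlap, 3 of 10 members against 19% of all genes in either direction. The difference of Txnip was 0.47 (SE 0.39) in vehicle culture and 0.19 (SE 0.44) with PSGL-1. Foxo1, Ccng2 and Tob1 were higher without overlap in KO than WT cells with PSGL-1, 3 of 10 against 17.8% of all genes in either direction. The WT group there holds 2 libraries, and the sparse one had 0 counts of Ccng2 and Tob1. In WT PSGL-1 replicate 2, Ccng2 had 15.5 CPM against 18.6 to 25.4 CPM in KO. Tob1 had 8.56 CPM there against 12.8 to 40.8 CPM in KO. The difference in culture response between genotypes was called for 0 members by edgeR, against 0% of all genes. At an unadjusted p under 0.05, 0 members passed, and 353 of the 14124 genes did. DESeq2 and limma voom called 0 members as well.

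**Figure D5:**
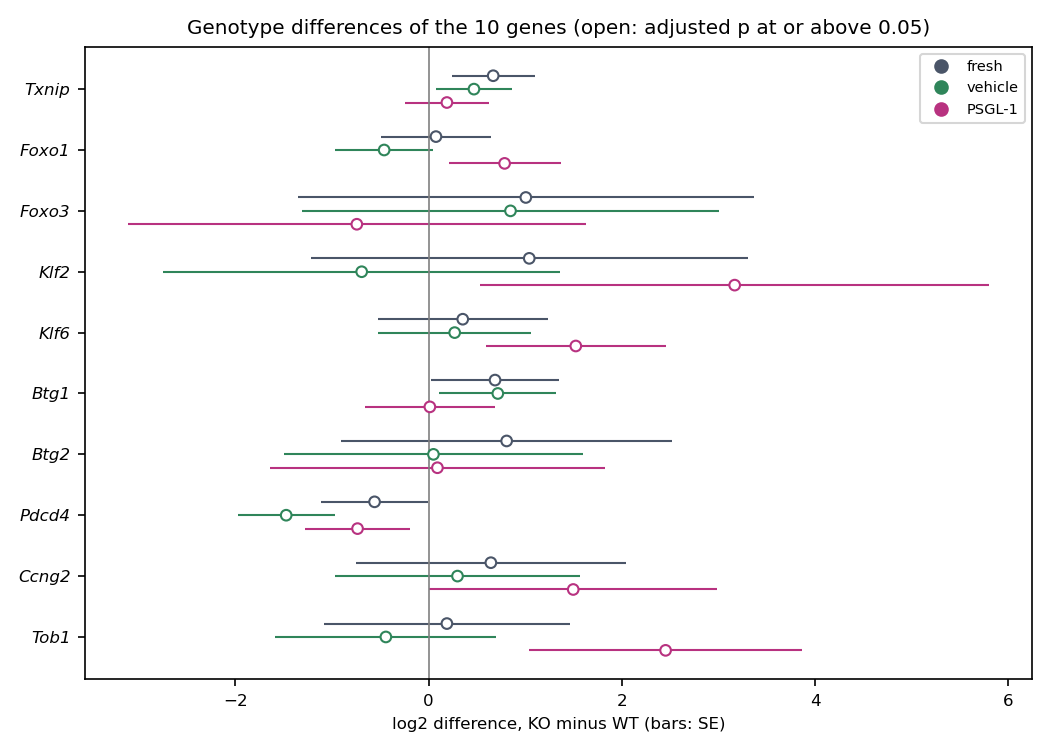
log2 difference between KO and WT for each of the 10 genes in fresh cells, vehicle culture and culture with PSGL-1, with bars for 1 SE; every point is open because none passed an adjusted p of 0.05 in edgeR. Pdcd4 is below 0 in all 3 conditions and lowest in vehicle culture at -1.47.

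The comparison of PSGL-1 with vehicle asked whether the ligand changed these genes in cultured cells. In edgeR 0 of 10 members were called in WT, in KO and for the difference between genotypes. In each of these the background was 0% of all genes tested. At an unadjusted p under 0.05, 0 members passed, and of all 14124 genes 803, 198 and 611 did. DESeq2 and limma voom also called 0 members. The difference of Txnip was 0.15 (SE 0.43) in WT and -0.13 (SE 0.39) in KO. In WT, Foxo1 and Tob1 were lower with PSGL-1 without overlap, 2 of 10 against 8.07% of all genes. Foxo1 had 40.4 and 18.1 CPM with PSGL-1 against 40.6 to 100.2 CPM with vehicle, and Tob1 had 0 and 8.56 CPM against 19.7 to 27.6 CPM. The 0 of Tob1 was in the sparse library. In KO, Ccng2 alone was lower without overlap, 18.6 to 25.4 CPM against 31.8 to 46.7 CPM, where the background was 3.96%.

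Calls of members with PSGL-1 appeared in 1 setting. When WT PSGL-1 replicate 2 was left out, the sparse library, with 0 counts for 5165 of the genes tested, stood alone for its group. Members were then called in WT cells, for the difference between genotypes, and between KO and WT with PSGL-1. With the sparse library left out instead, 0 members were called in each of these. Here a lone library is assumed to vary like the other groups, so calls in this setting are no result about the members.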

How the data were processed

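RNA was purified with RNeasy Plus Micro columns and amplified with SMART Ultra-Low Input v4, per the labels' protocols. The authors deposited raw read counts per gene symbol for 16 libraries in 6 groups. Per the submitters' processing notes, the tools were STAR 2.7.5c, featureCounts, MultiQC 1.10 and DESeq2, on build mm10. Annotation, strand setting and handling of multiply mapped reads were not stated, so reads shared by near-identical copies or overlapping genes could be split or lost.

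Counts were fitted in one edgeR 4.0.16 quasi-likelihood model (R 4.3.3; robust, one mean per group, all 16 libraries) after TMM scaling and filterByExpr, with 10 contrasts and Benjamini-Hochberg adjustment over 14124 genes. A call is an adjusted p under 0.05. Levels are TMM-scaled CPM, and log2 differences come from the fit, with SE from the F statistic. The detection floor of 3 counts covers counting error only. Exon lengths came from GENCODE vM21 and gene coordinates and promoters from RefSeq, both on GRCm38. Fits were tested on simulated data.

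Members and gene lists were chosen with earlier results of these data known. Each member is named. From each related list, up to 4 called genes with the smallest adjusted p per comparison could be named, and by likeness 5 genes for Txnip and 2 for each other member (mean of at least 5 CPM in 1 group). Lists are described by counts and medians, without a set test. Protein sequences were not used here.

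Alternatives were DESeq2 1.42.0, limma 3.58.1 voom with quality weights, RLE scaling, no filter, a filter of 1 CPM in 8 libraries, the groups compared alone, a minimum fold of 2, the replicate number as a block, and each library left out. Vehicle and PSGL-1 cultures together against fresh cells was added after the data were seen. No pair of replicates agreed within sampling noise (chi-square per degree of freedom at least 59.8). Whether replicates are separate animals is not stated in the labels, so p-values reflect the spread among these libraries alone, possibly technical.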

Additional observations from a re-analysis of the deposited data

How the results depend on the processing

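The call of Txnip in culture held in all alternatives run: its log2 difference ran from -3.10 to -2.66 in WT and from -3.54 to -2.69 in KO. The number of members called in KO culture was 1 to 2 over fits leaving out each library in turn, and 1 to 2 for the mean of both genotypes. For the mean, DESeq2 called 3 members (Txnip, Btg1 and Pdcd4). Limma voom, the groups compared alone, the replicate block, and vehicle and PSGL-1 cultures together each called 2 (Txnip and Pdcd4). Over all genes these fits called 1780, 1896, 1455, 788 and 1442, in that order, against 915 in the main fit. The groups compared alone had 13736 genes tested, the others 14124. With each library left out, members called ran from 0 to 4 for KO against WT with PSGL-1, 0 to 5 for PSGL-1 against vehicle in WT and 0 to 5 for its difference between genotypes, and each highest count came without WT PSGL-1 replicate 2.

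Directions that turned were all of differences that were not called. In WT culture, Btg2 was -2.23 with limma voom and -0.22 with the replicate block, and Tob1 was 0.068 with the block. For the mean, Foxo1 was -0.022 with limma voom and -0.11 with all cultures together, and Btg2 was -1.49 with limma voom, -0.80 with the replicate block and -0.26 with all cultures together. Leaving out each library gave ranges in WT of -0.18 to 0.72 for Foxo1, -0.43 to 0.35 for Klf6, -0.32 to 1.04 for Btg2, -1.90 to 0.10 for Ccng2 and -0.45 to 0.030 for Tob1. In KO they were -0.57 to 0.40 for Foxo1, -0.69 to 2.14 for Klf2, -0.48 to 0.18 for Klf6 and -1.17 to 0.065 for Btg2. For the mean they were -0.17 to 0.38 for Foxo1, -0.31 to 0.080 for Klf6 and -0.36 to 0.37 for Btg2. The Txnip response of KO minus WT ran from -0.64 to 0.22. Between KO and WT with PSGL-1, Txnip ran from -0.32 to 1.05 and Pdcd4 from -1.49 to 1.00. The cause of these turns was not tested.

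No pairing was seen by replicate number: of 36 pairs of libraries with the same number, 0 had deviations correlated above 0.1 (-0.07 to 0.08). By running number in the count headers, replicates 1 and 2 of KO fresh and WT PSGL-1 lie beside replicates 2 and 3 elsewhere. The pairs and the replicate block do not use that order, so pairing by it was not tested. With the replicate block, 788 genes were called for the mean against 915 without it. Foxo3 and Klf2 each had 0 counts in 3 libraries. Klf2 had 0 in KO PSGL-1 replicate 3, where replicates 1 and 2 of that group had 254 and 241 counts.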
